A study of Mus musculus with 6 samples.

Results

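The genes described here are 54 cyclins, cyclin-dependent kinases (CDKs), CDK inhibitors, E2F factors and replication and mitosis genes of MIN6 cells, picked by symbol from the 22298 genes in the deposited expression table, where each symbol had a single row. RNA was sequenced from 3 control samples of MIN6 and 3 samples after chronic epinephrine exposure. In the study's scheme, exposed cells were kept in 100 nM epinephrine for 3 days and then without it for 2 days, and the day on which RNA was taken for sequencing is not given in the sources used here. MIN6 is a mouse insulinoma line that arose in mice carrying the simian virus large T antigen under the insulin promoter, so both groups share that background. All samples are of this single line. The study's methods describe replicates in general as biological and independent, the labels do not say which cultures the sequenced samples came from, and the p-values measure the spread between these samples.

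The cell cycle is run by kinases that are active only when bound to a cyclin. D-type cyclins with CDK4 or CDK6 start the phosphorylation of the retinoblastoma protein in G1, which frees E2F factors to switch on the genes of DNA replication, and cyclin E with CDK2 carries the cell into S phase. Cyclin A and cyclin B with CDK1 drive G2 and mitosis, where the genes are switched on by MuvB complexes with B-Myb and FOXM1. Inhibitors of the INK4 family block CDK4 and CDK6, and those of the Cip/Kip family bind cyclin-CDK complexes more broadly. Large T antigen is known to bind the retinoblastoma family, and adult beta cells in the animal divide rarely, whereas insulinoma lines divide in culture. The comparison asks whether the transcripts of this machinery differed between exposed and control cells.

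The libraries held 15017065 to 18127171 expected counts each, and 53 of the 54 genes passed the filter on low counts. All 15 beta cell markers were above 10 FPKM in every library, with a lowest value of 20.1 FPKM, and all 8 exocrine and 4 endothelial markers were under 1 CPM (counts scaled to the size of the library) throughout. Control 1 stood apart. Its log2 CPM correlated with those of controls 2 and 3 at 0.979 and 0.978 across genes, against 0.993 between controls 2 and 3 and 0.992 to 0.993 among the epinephrine libraries. The summed markers of other cell types were 1.77 to 23.0 CPM in controls and 1.92 to 19.7 CPM after epinephrine for 7 fibroblast genes, and 0.629 to 1.38 CPM against 2.19 to 3.74 CPM for 6 leukocyte genes. For 6 hepatocyte genes the sums were 848 to 1437 CPM in controls and 1569 to 1755 CPM after epinephrine, mostly Ttr, which islet cells also express. Alb, which encodes albumin, was at 0.194, 33.9 and 82.3 CPM in controls 1, 2 and 3 and at 0.448 CPM or less after epinephrine. Of 5 other islet markers, Gcg, which encodes glucagon, lay between 175 and 212 CPM in controls and between 377 and 409 CPM after epinephrine. The part of these differences in the values below was not tested, and bulk RNA cannot tell fewer cells in a phase from less RNA of a gene per cell.

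In these data no cell cycle or replication gene was upregulated or downregulated at an adjusted p under 0.05 (edgeR quasi-likelihood test, adjusted over all 12747 genes tested). The count was 0 of 53 members, against 335 genes or 2.63% of all genes tested. The Wald test of DESeq2 called 1 member, beside 5.23% of all genes. Fitted log2 fold changes, epinephrine minus control, lay between -0.23 for Cdkn2c and 0.21 for Bub1, with 28 members higher and 25 lower and a median of 0.03, beside a median of 0.00 over all genes. At an unadjusted p under 0.05 there was 1 member, Cdkn2c, while the share over all genes was 17.1%. The groups did not overlap in CPM for 7 members, 4 higher and 3 lower, which is 13.2% of members beside 27.3% of all genes tested.

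The intervals show what size of change these 6 libraries allow. All 53 of the 95% intervals lay within a 2-fold change, 50 lay within a 1.5-fold change, and 52 held 0. The 3 beyond 1.5-fold were those of Ccnd1 at -0.79 to 0.88 and Cdkn1c at -0.82 to 0.39, both scarce, and of Cdc25c at -0.24 to 0.59. The intervals of more abundant genes in which control 1 departed were also wide, such as Cdt1 at -0.53 to 0.33 and Ccne2 at -0.30 to 0.51. The SE of Ccne2 was 0.18 with all libraries and 0.06 without control 1, and that of Cdc25c was 0.18 and 0.09. Control 1 stood apart in many members, so values from the fit without it are given beside a number of the results below.

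**Figure D1:**
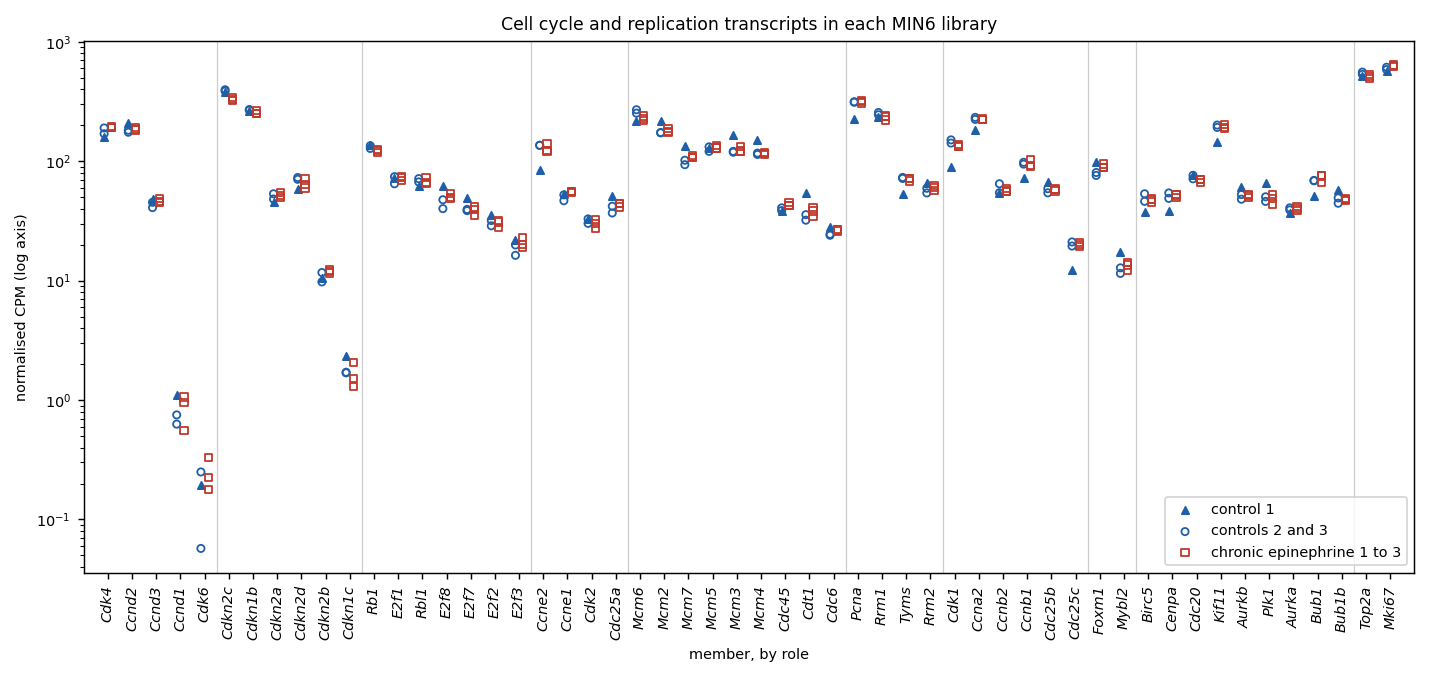
Normalised CPM (log axis) of the 54 members in each library, grouped by role and ordered within a role by mean FPKM, with control 1 as filled triangles, controls 2 and 3 as circles and the epinephrine libraries as squares. Most symbols of a gene lie on top of each other, Cdkn2c has its 3 epinephrine libraries (322 to 344 CPM) under its 3 controls (383 to 397 CPM), and control 1 departs in genes such as Cdk1 (90.2 CPM against 132 to 151 CPM elsewhere).

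Promoters are shown for 4 members because words in promoters mark the classes of genes that the results follow. Mcm6 is from the replication class, Cdk1 and Ccnb2 are from the mitosis class, and Cdkn2c is the member with the lowest p-value. RefSeq windows of 250 bases before to 50 after a start, on GRCm38.p6, matched 44 of the 54 members with 50 windows. Those not matched were Aurkb, Ccna2, Ccnd1, Ccnd2, Ccne2, Cdc25c, Cdkn1c, Foxm1, Mcm4 and Rb1. The words searched on both strands were TTTCCCGC, TTTCGCGC, TTTGCCGC and TTTGGCGC for E2F, TTTGAA and TTCGAA for the cell cycle homology region (CHR), an element of mitosis promoters bound by MuvB complexes, and CCAAT for the CCAAT box. Each sequence gives the 250 bases before the start, read 5′ to 3′ on the gene's strand, with every matched word in capitals. In Mcm6 an E2F word on each strand overlap, giving a longer run of capitals.
Mcm6 (chr1:128359706-128359955, minus strand): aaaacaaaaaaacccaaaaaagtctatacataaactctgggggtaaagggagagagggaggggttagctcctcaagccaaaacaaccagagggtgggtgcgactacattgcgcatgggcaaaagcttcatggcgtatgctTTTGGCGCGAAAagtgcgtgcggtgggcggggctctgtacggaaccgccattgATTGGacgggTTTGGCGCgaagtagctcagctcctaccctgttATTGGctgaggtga
Cdk1 (chr10:69352913-69353162, minus strand): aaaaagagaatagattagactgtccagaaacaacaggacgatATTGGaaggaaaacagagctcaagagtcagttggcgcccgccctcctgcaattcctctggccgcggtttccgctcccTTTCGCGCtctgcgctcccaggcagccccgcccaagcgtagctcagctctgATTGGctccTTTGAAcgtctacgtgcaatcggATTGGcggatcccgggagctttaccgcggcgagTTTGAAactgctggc
Ccnb2 (chr9:70421555-70421804, minus strand): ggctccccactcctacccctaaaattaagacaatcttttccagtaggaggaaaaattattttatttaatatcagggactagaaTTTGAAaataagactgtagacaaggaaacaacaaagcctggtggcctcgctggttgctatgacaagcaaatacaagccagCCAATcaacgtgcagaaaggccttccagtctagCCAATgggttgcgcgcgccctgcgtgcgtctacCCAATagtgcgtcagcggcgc
Cdkn2c (chr4:109666757-109667006, minus strand): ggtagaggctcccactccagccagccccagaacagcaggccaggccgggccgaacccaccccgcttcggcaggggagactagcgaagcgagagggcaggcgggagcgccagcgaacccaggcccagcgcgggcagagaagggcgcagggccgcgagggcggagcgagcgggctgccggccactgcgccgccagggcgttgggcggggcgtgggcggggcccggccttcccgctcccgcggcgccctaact

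An E2F word was in 14 of the 50 member windows (28%), beside 2.26% of all 32851 windows and 3.92% of the 13051 windows of genes tested. It was in 8 of 16 windows of the G1/S and replication members and in 1 of 15 windows of the G2/M and mitosis members, that of Cdk1. A CHR word was in 12 of 15 G2/M and mitosis windows and in 3 of 16 G1/S and replication windows, beside 19.2% of all windows. The CCAAT box was in 35 of 50 member windows (70%) and in 37.4% of all windows. The Mcm6 window holds 3 E2F words, the most of any member window and so not typical of its class, and 2 CCAAT boxes. Cdk1 holds an E2F word, 2 CHR words and 3 CCAAT boxes. The Cdkn2c window shown holds none of these letters. Another Cdkn2c window, at chr4:109665373-109665622, holds a CCAAT box that does not lie within the 250 bases before the start. A word is only a run of letters, and no binding was measured here.

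**Figure D2:**
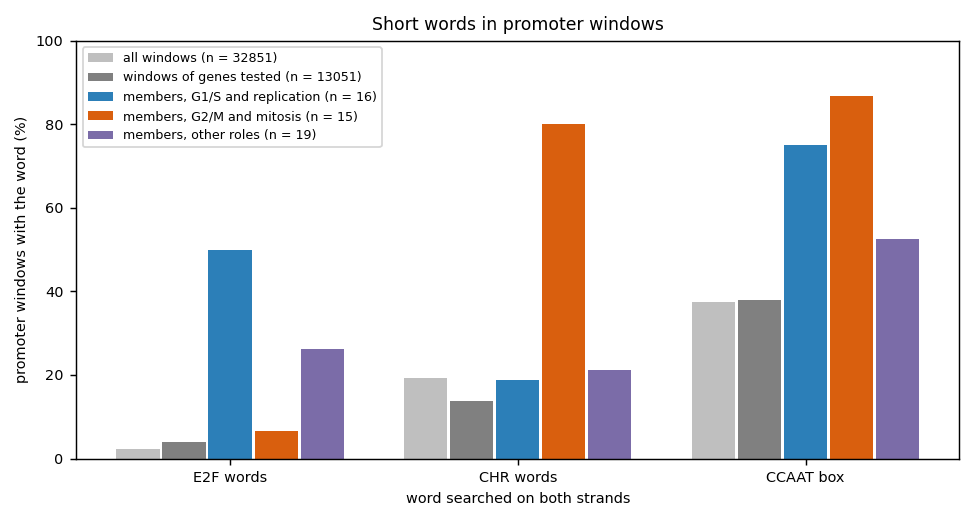
Share of promoter windows (%, y axis) that hold an E2F word, a CHR word or a CCAAT box on either strand, for all windows, for windows of genes tested and for 3 classes of members. E2F words were in 50% of G1/S and replication windows and CHR words in 80% of G2/M and mitosis windows, against 2.26% and 19.2% of all windows.

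D-type cyclins and their kinases were present in an uneven set. Per length, Ccnd2 had a mean of 31.4 FPKM over the 6 libraries and Ccnd3 of 25.5 FPKM, whereas Ccnd1 was at 0.14 to 0.30 FPKM, from 10 to 17 counts in each library. The kinase Cdk4 had a mean of 92.6 FPKM, while Cdk6 was at 0.06 FPKM or less, from 1 to 5 counts in each library, and was left out by the filter on low counts. Levels of Ccnd1 were 1.10, 0.629 and 0.751 CPM in controls and 0.949, 0.56 and 1.06 CPM after epinephrine. These values overlap fully, and at this depth the wide interval given above does not settle the size or direction of any change in Ccnd1. Ccnd2 had 208, 175 and 182 CPM in controls and 184, 183 and 192 CPM after epinephrine, with a log2 fold change of -0.01 ± 0.09 (SE). Ccnd3 differed by 0.06 ± 0.09 on the same scale. Without control 1 the values were 0.06 ± 0.05 for Ccnd2 and 0.12 ± 0.07 for Ccnd3, with adjusted p-values of 0.443 and 0.251 by edgeR.

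Cdk4 had 159, 170 and 190 CPM in controls and 192, 192 and 196 CPM after epinephrine. All 3 epinephrine libraries were higher than the controls, by a narrow margin over control 3, and the log2 fold change was 0.16 ± 0.09 (SE, adjusted p = 0.412 by edgeR). This fold change was 0.10 ± 0.05 without control 1 and 0.23 without control 3. The exact permutation p (two-sided, over samples) was 0.1, and groups of 3 cannot reach a lower value. The Cdk4 exons share 19.7% of their bases with Tspan31 on the other strand, and the Ccnd1 exons share 23.4% with LTO1. Exons of Cdkn1c share 30.7% with Gm44732 and those of Ccne2 share 17.4% with Ints8, also on the other strand. So do those of Cdc25c (12.7%, Gm3550), Ccna2 (12.5%, Exosc9) and E2f8 (11.2%, Gm2788). Mcm7 shares 12.6% with Ap4m1, Cops6, Mir25 and Mir93. Rb1 is given below, and the other members share smaller parts or none. No source used here says whether counting used strand, so reads from these shared bases cannot be told apart.

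CDK inhibitors held the member with the lowest p-value. Cdkn2c, which encodes the INK4 inhibitor of CDK4 and CDK6 known as INK4C, lies at chr4:109660876-109667189 on the minus strand of GRCm38 and shares no exonic bases with another gene. It had 383, 387 and 397 CPM in controls and 331, 322 and 344 CPM after epinephrine. Every epinephrine library was below every control, and the means were 389 ± 7.32 and 332 ± 11.3 CPM (SD, n = 3 each). The log2 fold change was -0.23 ± 0.08 (SE), with a 95% interval of -0.41 to -0.05, an unadjusted p of 0.0168 and an adjusted p of 0.180 by edgeR, which misses the threshold. The exact permutation p was 0.1, again the lowest that can be reached. The adjusted p of Cdkn2c was 0.0293 by DESeq2, which called no other member, and it ranged from 0.00062 to 0.506 over all the alternative settings, with a log2 fold change between -0.30 and -0.21 throughout.

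Cdkn2c was also abundant per length, at 181 to 239 FPKM. Its mean was 233 FPKM in controls, beside 189 FPKM for Pcna, and 189 FPKM after epinephrine, beside 206 FPKM for Pcna. Its INK4 relatives were lower, with mean levels of 57.3 FPKM for Cdkn2a, 47.5 FPKM for Cdkn2d and 8.12 FPKM for Cdkn2b. The row of Cdkn2a does not separate the INK4A and ARF transcripts, which share exons. Of the Cip/Kip members, Cdkn1b had a mean of 94.3 FPKM and Cdkn1c of 1.05 FPKM. None of these 5 differed at an unadjusted p under 0.05 by edgeR with all libraries. Cdkn2a differed by 0.07 ± 0.09 (SE, log2), Cdkn2b by 0.16 ± 0.11, Cdkn2d by -0.05 ± 0.11, Cdkn1b by -0.06 ± 0.08 and Cdkn1c by -0.22 ± 0.27. Leaving out control 1 gave 0.03 ± 0.07, 0.15 ± 0.12, -0.14 ± 0.07, -0.07 ± 0.05 and -0.05 ± 0.33 in the same order. The group as a whole had 2 members higher, 4 lower and a median of -0.05. The median was -0.02 without control 3, and with the GC and length offset it was -0.11, with 1 higher and 5 lower.

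Among pocket proteins and E2F factors 4 genes were higher and 3 lower, with a median of 0.03, and 0 of 7 passed the test. The median ran from -0.12 to 0.05 with a sample left out. Rb1, which encodes the retinoblastoma protein, had 138, 135 and 128 CPM in controls and 119, 125 and 123 CPM after epinephrine. The groups did not overlap, and the log2 fold change was -0.13 ± 0.08 (SE, adjusted p = 0.454 by edgeR; exact permutation p = 0.1). Exons of Rb1 share 14.9% of their bases with Lpar6 and Rcbtb2 on the other strand. Its relative Rbl1, which encodes p107, differed by 0.03 ± 0.09. Among the activator E2F genes, E2f1 was at 26.0 FPKM and differed by 0.03 ± 0.09, E2f2 was at 6.56 FPKM and differed by -0.09 ± 0.11, and E2f3 was at 4.10 FPKM and differed by 0.10 ± 0.14. Leaving out control 1 gave 0.05 ± 0.06 for E2f1, -0.01 ± 0.08 for E2f2 and 0.20 ± 0.10 for E2f3.

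The repressor genes E2f7 and E2f8 act against the activators late in S phase, and both were high in control 1. E2f8 had 62.0, 40.1 and 47.6 CPM in controls and 49.1, 50.0 and 53.5 CPM after epinephrine. The controls span the epinephrine libraries on both sides, and the log2 fold change was 0.03 ± 0.15 (SE). Without control 1 it was 0.22 ± 0.07 with an adjusted p of 0.0358 by edgeR. E2f7 had 49.1 CPM in control 1 and 35.3 to 41.3 CPM in the other 5 libraries.

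The G1/S group holds the E-type cyclins, their kinase Cdk2 and the phosphatase Cdc25a that activates it. Ccne1 had 53.5, 46.7 and 52.3 CPM in controls and 54.6, 55.6 and 55.6 CPM after epinephrine, above every control, with a log2 fold change of 0.12 ± 0.09 (SE, adjusted p = 0.514 by edgeR). Ccne2, at 42.0 FPKM beside 28.0 FPKM for Ccne1, had 84.0, 136 and 136 CPM in controls and 120, 140 and 123 CPM after epinephrine. Control 1 was the low library, and the sign of the Ccne2 difference turned with it, from 0.11 ± 0.18 with all libraries to -0.09 without it. Cdk2 differed by -0.09 ± 0.10 and Cdc25a by 0.00 ± 0.12, and without control 1 by -0.07 ± 0.08 and 0.13 ± 0.07.

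Replication licensing genes load and start the helicase. The MCM2 to MCM7 proteins form the ring of the helicase, CDC6 and CDT1 load it onto origins, and CDC45 joins it when an origin fires. All 9 genes were expressed, from 8.26 FPKM for Cdc6 to 80.5 FPKM for Mcm6, and none was called by edgeR with all libraries. With all libraries 6 were lower and 3 higher after epinephrine, with a median of -0.06, and without control 1 there were 8 higher and 1 lower, with a median of 0.06. The sign of the median thus turned when a single library was left out.

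Control 1 was above all other libraries for 6 of the 9, beside 33.2% of all genes tested. Mcm3 had 165 CPM in control 1 and 119 to 132 CPM in the other 5, Mcm4 had 151 CPM against 114 to 118 CPM, and Cdt1 had 54.6 CPM against 32.1 to 41.1 CPM. Mcm2 and Mcm7 showed the same order, with 216 CPM against 173 to 188 CPM and 133 CPM against 93.6 to 111 CPM. Mcm5 did not follow, with 129 CPM in control 1 and 121 to 136 CPM elsewhere.

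Mcm6, whose promoter is printed above, went the other way. It had 217, 253 and 270 CPM in controls and 239, 220 and 229 CPM after epinephrine, so that control 1 lay narrowly below every other library. The log2 fold change was -0.11 ± 0.10 (SE, adjusted p = 0.636 by edgeR) with all libraries and -0.19 ± 0.05 without control 1, with an adjusted p of 0.00963. Cdc45 was the member of this group whose groups did not overlap, at 38.6, 38.6 and 40.7 CPM in controls and 45.0, 42.6 and 42.9 CPM after epinephrine. Its log2 fold change was 0.15 ± 0.08 (SE, adjusted p = 0.403 by edgeR).

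Genes of the replication clamp and of nucleotide supply had mean levels from 28.6 FPKM for Rrm2 to 198 FPKM for Pcna. Pcna, which encodes the sliding clamp of the DNA polymerases, had 227, 315 and 312 CPM in controls and 323, 308 and 318 CPM after epinephrine. Apart from control 1 all libraries lay within 308 to 323 CPM, and the log2 fold change of 0.15 ± 0.13 (SE) became 0.01 without that library. The mouse genome holds processed copies of Pcna, and how shared reads were counted is not given in the sources used here. Rrm1 and Rrm2, the subunits of ribonucleotide reductase, differed by -0.08 ± 0.08 and 0.01 ± 0.10. Tyms, which makes thymidylate, had 52.8 CPM in control 1 and 68.2 to 73.2 CPM in the other 5 libraries.

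G2/M cyclins, CDK1 and the CDC25 phosphatases that activate it formed the group lowest in control 1. There 5 of 6 genes were below all other libraries, beside 34.8% of all genes tested. Cdk1 had 90.2, 142 and 151 CPM in controls and 138, 134 and 132 CPM after epinephrine. The log2 fold change was 0.08 ± 0.17 (SE) with all libraries and -0.12 without control 1, where the adjusted p was 0.118 by edgeR. Ccna2 had 184 CPM in control 1 and 223 to 233 CPM elsewhere, Ccnb1 had 72.8 CPM against 90.0 to 103 CPM, and Cdc25c had 12.4 CPM against 19.2 to 21.1 CPM. Ccnb2 was 54.2 CPM in control 1 and 54.5 to 64.8 CPM elsewhere. Cdc25b was the exception, at 67.4 CPM in control 1 and 54.4 to 58.9 CPM in the other libraries. The group went from 4 higher and 2 lower, with a median of 0.08, to 1 higher and 5 lower, with a median of -0.02, when control 1 was left out.

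The transcription factors of G2/M, Foxm1 and Mybl2, were high in control 1. Foxm1 had 98.0, 76.1 and 80.5 CPM in controls and 88.1, 88.6 and 94.7 CPM after epinephrine. All 3 epinephrine libraries lay between control 1 and the other controls, and the log2 fold change was 0.09 ± 0.11 (SE, adjusted p = 0.715 by edgeR). Without control 1 it was 0.21 ± 0.06, with an adjusted p of 0.0106. Mybl2, which encodes B-Myb, was scarce at 3.98 FPKM and had 17.4 CPM in control 1 and 11.5 to 14.1 CPM elsewhere.

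Among mitotic kinases, checkpoint and spindle genes, 5 were higher and 4 lower, with a median of 0.04. The median was 0.00 without control 1 and 0.08 without control 3, and with the GC and length offset it was -0.03, with 4 higher and 5 lower. Birc5, which encodes survivin of the chromosomal passenger complex, was the most abundant per length, at 43.5 FPKM. It had 37.9, 46.2 and 53.4 CPM in controls and 48.2, 48.1 and 45.5 CPM after epinephrine, and its controls span the epinephrine libraries. Bub1, a kinase of the spindle checkpoint, had the largest positive difference of all members, with 51.6, 68.6 and 69.1 CPM in controls and 76.4, 75.4 and 66.8 CPM after epinephrine. The log2 fold change of Bub1 was 0.21 ± 0.13 (SE, adjusted p = 0.448 by edgeR), and without control 1 it was 0.08. Its relative Bub1b differed by -0.08 ± 0.11, and by 0.03 ± 0.07 without control 1.

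The 2 Aurora kinase genes differed by 0.05 ± 0.09 (SE, log2) for Aurka and -0.07 ± 0.10 for Aurkb. Control 1 was above all other libraries for Aurkb, and without it the values were 0.01 ± 0.07 and 0.03 ± 0.07. Plk1, the polo-like kinase of mitotic entry, had 65.4 CPM in control 1 and 43.8 to 52.7 CPM in the other 5 libraries, and its difference of -0.16 ± 0.14 became 0.00 without control 1. Cdc20, which activates the anaphase-promoting complex, had 76.5, 71.3 and 76.3 CPM in controls and 70.8, 70.4 and 66.7 CPM after epinephrine. The groups did not overlap, and the log2 fold change was -0.11 ± 0.08 (SE, adjusted p = 0.527 by edgeR). Kif11, a spindle motor, and Cenpa, the histone of centromeres, were both lowest in control 1, at 144 CPM against 187 to 203 CPM and 38.3 CPM against 48.9 to 54.3 CPM.

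The proliferation marker Mki67 and the topoisomerase gene Top2a were the members with the most reads. Mki67 had 566, 613 and 586 CPM in controls and 623, 641 and 632 CPM after epinephrine. Every epinephrine library was above every control, and the means were 589 ± 23.5 and 632 ± 9.12 CPM (SD, n = 3 each). The log2 fold change was 0.10 ± 0.08 (SE, adjusted p = 0.549 by edgeR; exact permutation p = 0.1), with an interval of -0.08 to 0.28. Top2a had 521, 558 and 534 CPM in controls and 532, 490 and 509 CPM after epinephrine, with overlapping groups and a log2 fold change of -0.08 ± 0.08 (SE). The intervals of both genes lay within a 1.5-fold change in either direction.

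**Figure D3:**
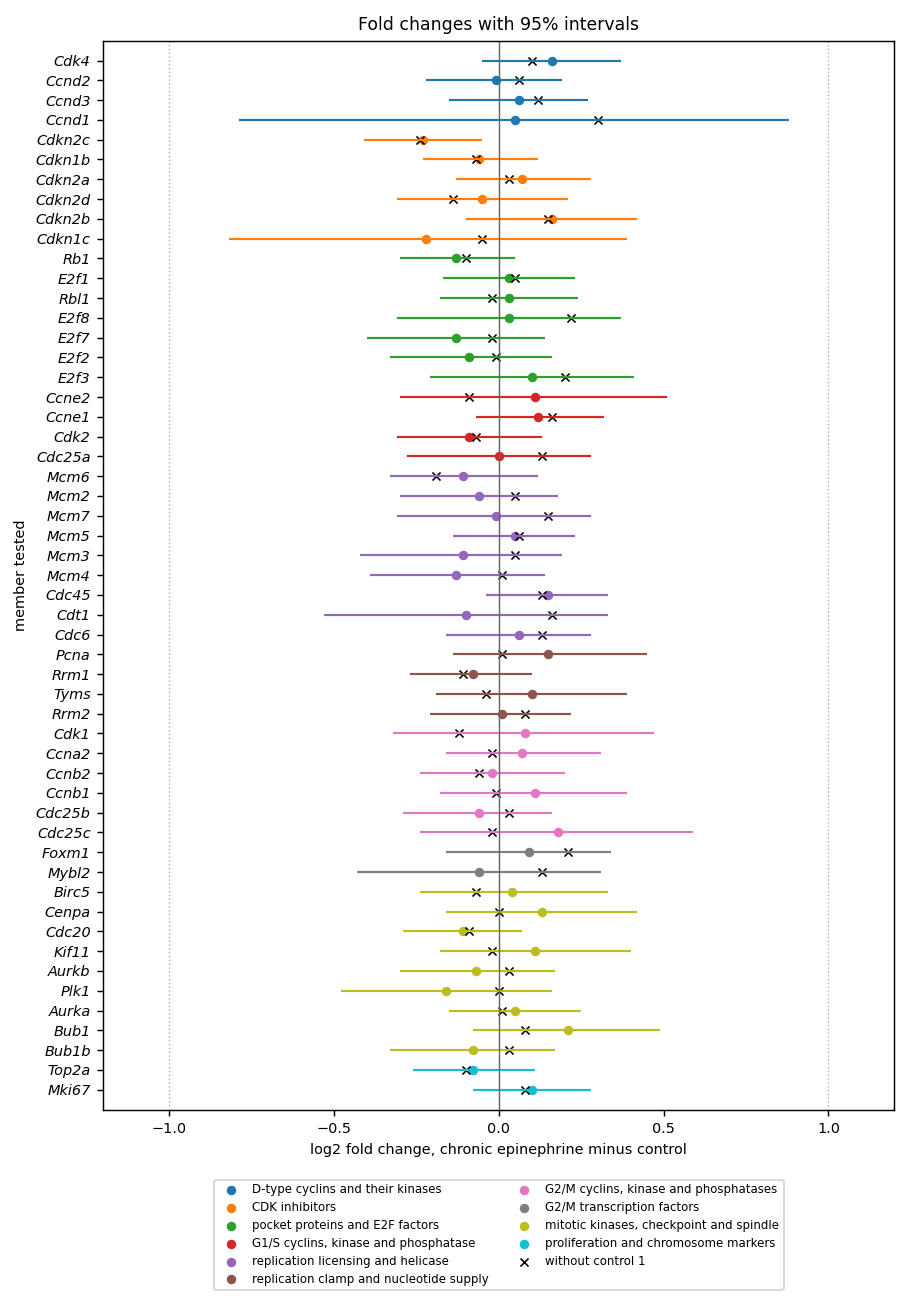
Log2 fold change (x axis, epinephrine minus control) of the 53 members tested, with 95% intervals as lines, coloured by role, and crosses for the value without control 1. All intervals lie inside the dotted lines at a 2-fold change, and that of Cdkn2c (-0.41 to -0.05) is the one that does not hold 0.

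Control 1 also stood apart among the members. It was above all 5 other libraries for 22 members (41.5%) and below them for 19 (35.8%). Over all genes tested the shares were 33.2% and 34.8%, so such departures were common in the whole table. By role, its median log2 CPM against the control mean was 0.21 for licensing genes, 0.28 for the G2/M transcription factors and 0.15 for pocket proteins and E2F factors. It was -0.24 for the G2/M cyclins, kinase and phosphatases and -0.18 for the clamp and nucleotide genes, while over all genes tested it was -0.01. Over the 10 roles, the medians lay between -0.19 and 0.09 in control 2, between -0.09 and 0.16 in control 3 and between -0.10 and 0.12 in the epinephrine libraries. The control mean includes control 1, so a departure of that library shifts controls 2 and 3 the other way on this scale.

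**Figure D4:**
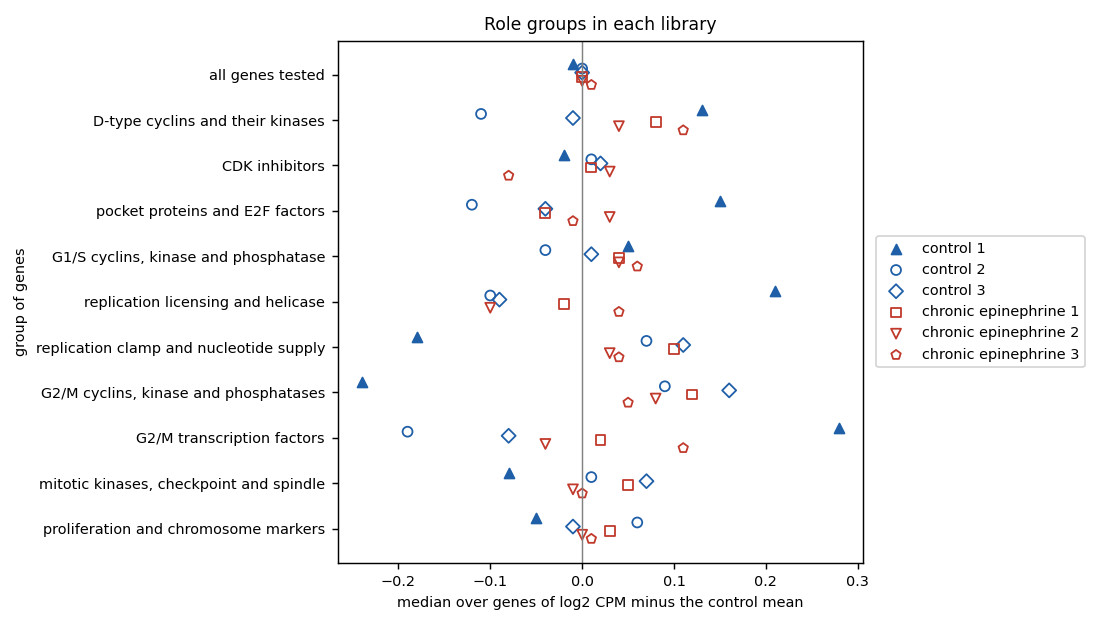
Median over the genes of each role (x axis) of log2 CPM minus the control mean, with a symbol for each of the 6 libraries, and all genes tested in the top row. Control 1 (filled triangles) lies at the far right for licensing genes (0.21) and at the far left for G2/M cyclins, kinase and phosphatases (-0.24), away from the other libraries.

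The genes that were high in control 1 had transcripts richer in G and C. Across 53 members, the deviation of control 1 from the mean of the other 5 libraries correlated with transcript GC content at r = 0.51, beside 0.37 across 12742 genes with an annotated transcript. These points share their libraries and genes are not independent replicates, so no p is given. Ccne2, with 36.3% GC, was at -0.63 in control 1 on the log2 scale, and Cdt1, with 57.8% GC, was at 0.59. Some members departed from this order, such as Cdk4 with 53.3% GC at -0.24, Cdkn2a with 60.2% GC at -0.16 and Mcm4 with 45.5% GC at 0.37. With an offset for GC content and length, 0 members were called, beside 10.4% of all genes, and the members ran from -0.25 to 0.16 with a median of -0.01.

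**Figure D5:**
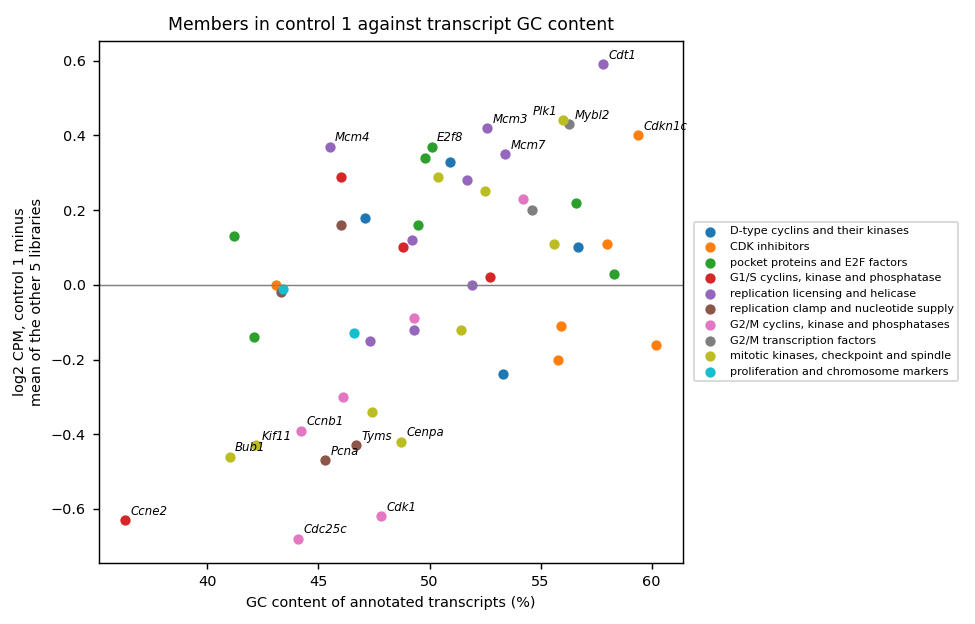
Log2 CPM in control 1 minus the mean of the other 5 libraries (y axis) against the GC content of annotated transcripts (%, x axis) for the 53 members tested, coloured by role. The points tend to rise with GC content, as from Ccne2 (36.3% GC, -0.63) to Cdt1 (57.8% GC, 0.59). Members richer in GC than Cdt1 lie lower, from 0.40 for Cdkn1c to -0.16 for Cdkn2a. Cdc25c (44.1% GC, -0.68) and Cdk1 (47.8% GC, -0.62) lie low.

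Without control 1, 4 members passed an adjusted p of 0.05 by edgeR, beside 21.6% of all genes, so the share among the 53 members (4 genes) was below the background. They were Cdkn2c and Mcm6, which were lower, and Foxm1 and E2f8, which were higher. For Cdkn2c the log2 fold change without control 1 was -0.24 ± 0.05 (SE, adjusted p = 0.00062). The 4 intervals all lay within a 1.5-fold change. They were -0.34 to -0.14 for Cdkn2c, -0.30 to -0.08 for Mcm6, 0.09 to 0.33 for Foxm1 and 0.06 to 0.37 for E2f8. This fit has 2 controls against 3 epinephrine libraries, and the spread of each gene was estimated from those 5.

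Of 123 other genes of the pathway, listed by role and all tested, 0 passed an adjusted p of 0.05 by edgeR, and 11 had an unadjusted p under 0.05, with 8 higher and 3 lower. These 11 are 8.94% of the list, beside 17.1% of all genes tested. The median of the 123 was 0.04, with 81 higher and 42 lower. Control 1 was below all other libraries for 55.3% of them, beside 34.8% of all genes tested. Without that library 60 were higher and 63 lower, with a median of 0.00. With the GC and length offset 68 were higher and 55 lower. Among 40 replication genes 5 had an unadjusted p under 0.05, among 60 mitosis genes 1 did, and among 23 cell cycle regulators 5 did. DESeq2 called 2 of the 123, beside 5.23% of all genes, and the fit with the GC and length offset called 4 (3.25%), beside 10.4%. Without control 1 there were 20 (16.3%), of which 9 were higher and 11 lower, beside 21.6% of all genes.

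The 4 genes called by DESeq2 or with the GC and length offset are named here after their values were seen, and the other genes called without control 1 are given by their count alone. Tfdp2, which encodes a partner of the E2F factors, had 138, 140 and 142 CPM in controls and 113, 107 and 114 CPM after epinephrine. The log2 fold change was -0.33 ± 0.08 (SE), with an adjusted p of 0.0665 by edgeR and 0.00116 by DESeq2. Cdkn1a, which encodes the Cip/Kip inhibitor induced by p53, had 90.0, 79.6 and 89.7 CPM in controls and 106, 108 and 106 CPM after epinephrine. Its log2 fold change was 0.30 ± 0.08 (SE), with an adjusted p of 0.106 by edgeR and 0.0379 by DESeq2. Orc1, which encodes the largest subunit of the origin recognition complex, had 4.08, 4.06 and 3.57 CPM in controls and 6.23, 5.38 and 6.21 CPM after epinephrine. Its log2 fold change was 0.60 ± 0.15 (SE), with an adjusted p of 0.0803 by edgeR and 0.0418 with the GC and length offset. Lig1, the ligase of the lagging strand, had 219, 171 and 167 CPM in controls and 150, 143 and 148 CPM after epinephrine, with adjusted p-values of 0.187 and 0.0197 in the same order. Its log2 fold change was -0.32 ± 0.07 (SE) with the GC and length offset and -0.20 ± 0.05 without control 1. In each of these 4 genes the groups did not overlap. The same held for 23 of the 123 listed genes (18.7%), beside 27.3% of all genes tested.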

How the data were processed

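RNA of 6 MIN6 samples, 3 controls and 3 after chronic epinephrine, was sequenced on an Illumina Novaseq instrument by the authors' provider. Per gene, the authors deposited an expected count for each library, not normalised, together with FPKM, in which length and library total are divided out. The submitters' processing notes name GRCm38, and the aligner, counting tool and strandedness are not given in the sources used here. Groups came from the sample titles. The members and all gene lists were chosen with earlier results of these data known.

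Expected counts (12.1% of nonzero values were not whole) were rounded, filtered with filterByExpr, scaled by TMM and compared between epinephrine and control with glmQLFit and glmQLFTest (edgeR 4.0.16, R 4.3.3; quasi-likelihood), with Benjamini-Hochberg adjustment over 12747 genes. SE is the log2 fold change divided by the square root of F, and the 95% interval uses the t quantile of the fit. CPM values are TMM-normalised, and FPKM values are used to compare levels between genes and in the limma alternatives. A count of 0 was taken to allow 3 counts, which is 0.165 to 0.200 CPM in these libraries, and this covers counting error only. The scripts were tested on simulated data.

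Values in every sample were given for members at an adjusted p under 0.05, at an unadjusted p under 0.05, or at an adjusted p under 0.05 with a library left out, and for the most abundant member of each role. Other members are given in full where the groups did not overlap, and Ccnd1, Ccnd2 and Bub1 were added after their values were seen. Alternatives were DESeq2 1.42.0 (size factors or Wald test), upper quartile scaling, library size only, no filter, at least 10 counts in every sample, replicate block, limma 3.58.1 on log2 FPKM with 1 or 0.1 added, each sample left out, and, added after seeing the data, an offset for GC content and length (natural splines with 4 degrees of freedom). Positions, GC content and shared exons are from GENCODE mouse release 21, and promoter sequences are from RefSeq, GRCm38.p6.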

Additional observations from a re-analysis of the deposited data

How the results depend on the processing

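The count of members at an adjusted p under 0.05 was 0 in every setting except the Wald test of DESeq2, which gave 1, and the fit without control 1, which gave 4 (0 to 4 over the 6 fits with a sample left out). The median log2 fold change of the members was 0.03, was 0.00 by library size only and by limma on log2 FPKM with 1 or 0.1 added, was -0.01 with the offset for GC content and length, and ran from -0.05 to 0.01 with a sample left out. The SD between sample medians was 0.02. The count of members whose groups did not overlap was 7 and was 8 to 18 (15.1 to 34% of 53) with a sample left out, beside 33.4 to 47.4% of all 12747 genes, where fewer samples have to be separated. For the 123 other pathway genes the count was 2 by DESeq2, 4 with the offset and 0 to 20 with a sample left out.

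Over all genes, 335 were called, against 178 with the replicate block, 734 by DESeq2, 1329 with the offset and 47 to 2798 with a sample left out, highest without control 1. The replicate block called 0 members, as did the fit without it. Replicate numbers were not treated as pairs, since the deviations of same-numbered samples correlated at 0.0502, 0.0677 and -0.0488 across genes. The cause of the differences over all genes was not tested.

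Of 176 values of 11 named genes under 16 alternatives, 164 kept their direction and side of the threshold, 5 newly passed it and 7 changed sign. With a sample left out, Ccne2 ran from -0.09 to 0.21, Cdk1 from -0.12 to 0.21, Birc5 from -0.07 to 0.17 and E2f8 from -0.12 to 0.22, and E2f8 by library size only was 0.00. Depth limits Ccnd1, Cdk6 and Cdkn1c, which had 37 counts or fewer in each library.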
